A study of Rattus norvegicus with 12 samples.

Results

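The genes described here are 10 inhibitors of MAP kinase signalling, most of which cells switch on when the pathway is active. They are the dual-specificity phosphatases Dusp1, Dusp4, Dusp5, Dusp6, Dusp8 and Dusp10, the Sprouty proteins Spry1, Spry2 and Spry4, and the Sprouty-related protein Spred1. The genes were taken by symbol from the deposited table of rat aortic smooth muscle cells, and all 10 were found among its 22081 genes. All 10 also passed the filter on low counts, which kept 14825 genes for testing.

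MAP kinases are the last step of a chain that carries signals from growth factor receptors (through Ras to ERK) and from stress (to JNK and p38) to the nucleus. The dual-specificity phosphatases take the activating phosphates off these kinases, each with its own preference for ERK or for JNK and p38. Sprouty and Spred proteins act further up, between the receptor and Raf. Because ERK activity raises the transcription of many of these genes, they form a negative feedback, and in vascular smooth muscle MAP kinases are known to respond to growth factors and to mechanical load.

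Wistar rat primary aortic smooth muscle cells were compared in 4 groups of 3 libraries, 12 in all. WT cells had an intact Thbs1 gene, which encodes the secreted matrix protein thrombospondin-1 (Tsp1). Tsp1 KO cells had been transfected with a plasmid for Cas9, GFP and a guide against Thbs1, sorted for GFP and cloned from single cells, and the number of clones used was not stated. Each genotype was kept static or given uniaxial cyclic stretch of 20% strain at 1.0 Hz (60 cycles per minute) on coated silicone plates after 24 h without serum, and the stretch time was not given. All cells were at passages 5 to 8 and had been grown in 20% serum. An effect of the lost gene cannot be told apart from a difference between clones, and no label says whether the libraries within a group are separate cultures, so a p-value covers the spread between libraries alone, and that spread may be technical.

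Promoter sequence is shown for the 4 phosphatases on which the results turn: Dusp1 and Dusp8, which were higher under stretch, and Dusp5 and Dusp6, which were higher in the KO cells. Each line gives the 250 bases before the annotated RefSeq start in the GRCr8 build, 5′ to 3′ on the gene's strand. These are chr10:17184603-17184852 (+) for Dusp1, chr1:206612442-206612691 (-) for Dusp8, chr1:262543524-262543773 (+) for Dusp5 and chr7:35979354-35979603 (+) for Dusp6. Capitals mark the cAMP response element TGACGTCA in Dusp1 and the serum response factor motif known as the CArG box in Dusp5.
Dusp1: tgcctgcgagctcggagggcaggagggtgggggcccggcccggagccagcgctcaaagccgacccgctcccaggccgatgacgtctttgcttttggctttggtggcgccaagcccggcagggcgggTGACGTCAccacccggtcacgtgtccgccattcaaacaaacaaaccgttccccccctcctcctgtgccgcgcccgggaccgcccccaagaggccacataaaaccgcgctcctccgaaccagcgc
Dusp8: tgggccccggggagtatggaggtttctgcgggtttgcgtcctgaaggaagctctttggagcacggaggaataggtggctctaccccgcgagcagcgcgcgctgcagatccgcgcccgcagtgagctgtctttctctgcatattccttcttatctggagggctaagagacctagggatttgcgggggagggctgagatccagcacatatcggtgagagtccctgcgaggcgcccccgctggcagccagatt
Dusp5: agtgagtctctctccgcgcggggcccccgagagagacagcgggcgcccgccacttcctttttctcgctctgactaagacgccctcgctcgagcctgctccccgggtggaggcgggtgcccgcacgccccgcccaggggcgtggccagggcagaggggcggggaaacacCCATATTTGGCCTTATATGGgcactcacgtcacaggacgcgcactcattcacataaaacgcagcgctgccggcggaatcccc
Dusp6: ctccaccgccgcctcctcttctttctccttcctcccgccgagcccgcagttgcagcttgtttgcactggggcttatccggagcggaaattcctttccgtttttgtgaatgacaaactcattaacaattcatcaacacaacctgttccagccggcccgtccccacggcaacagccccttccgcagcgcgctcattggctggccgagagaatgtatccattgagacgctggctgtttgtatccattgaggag

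The Dusp1 window held TGACGTCA from base -124 to base -117 relative to the start, and the Dusp5 window held a pair of adjoining CArG boxes from -82 to -73 and from -72 to -63. Over 33469 rat promoter windows of the same length, 1.59% held TGACGTCA and 1.5% held a CArG box, each searched on both strands. The shorter TGACG, which lies inside TGACGTCA, was in 18.2% of windows and in those of Dusp1, Dusp5 and Spry2. The AP-1 motif TGANTCA (6.34% of windows), the ETS motif CCGGAAG (7.27%) and the MCAT motif CATTCC (12.1%) were in none of the windows of the 9 feedback genes that the RefSeq table covered. The motifs were chosen with the expression results known, and a match or its absence in this window says nothing of what is bound.

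The libraries held 16.8e6 to 38e6 exon reads. Thbs1, the targeted gene, was at 2661 ± 547 counts per 1e6 reads (CPM, SD, n = 3) in WT static and 556 ± 101 CPM in KO static cells, a log2 fold change of -2.26 ± 0.24 (SE, edgeR FDR 3.96e-05), so reads on it remained after the edit. The 4 libraries numbered 3 stood apart, with 9.15% to 11.29% of gene reads in introns against 14.75% to 16.46% in the others, and in KO stretch library 3 only 83.1% of exon reads mapped uniquely. All 9 smooth muscle markers were present in every group, with summed levels of 3281 to 6639 CPM. Leukocyte markers summed to 1.96 to 4.06 CPM, and endothelial markers to 5.22 to 15.4 CPM with Cldn5 at 0 in every group.

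Dusp1 and Dusp8 were called higher under stretch in WT cells and Dusp1 in KO cells, calls that several alternative fits lost. Dusp8 was also higher in stretched KO cells but did not pass (log2 0.93, FDR 0.0836). KO cells had a much higher level of Dusp6, a higher level of Dusp5 and lower levels of Dusp10 and Spry1 than WT cells, static or stretched. A gene was called changed at a false discovery rate (FDR) under 0.05 in edgeR's quasi-likelihood test over all 14825 genes. The 10 genes were chosen with earlier results of these data known, so their counts beside all genes are descriptions and no test of enrichment. Under stretch 2 of the 10 genes were called in WT cells, where 0.742% of all tested genes were. Both were higher, as were 0.277% of all tested genes, and 0 were lower (0.465% of all). In KO cells stretch changed 1 of 10 (0.796% of all), which was higher (0.209% of all were higher and 0.587% lower), and 2 of 10 when the library number was fitted as a block (4.42% of all with the block). In static cells KO differed from WT for 5 of 10 genes (20.8% of all), of which 3 were higher (12.1%) and 2 lower (8.66%). In stretched cells KO also differed from WT for 5 of 10 (20.6% of all), of which 2 were higher (11.9%) and 3 lower (8.73%), and for 6 of 10 with the block (37.3% of all). Without the libraries numbered 3 stretch changed 2 of 10 in WT (3.54% of all genes) and 2 of 10 in KO cells (2.94%), and KO differed from WT for 4 of 10 static (31.8%) and 6 of 10 stretched (33.4%). The median log2 fold change of the 10 genes was 0.14 for stretch in WT, -0.08 for stretch in KO, -0.06 for KO static and -0.12 for KO stretch against WT stretch, beside medians of no more than 0.01 in size over all tested genes. The 4 comparisons share groups pairwise and are not independent of each other.

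A lower level in these bulk libraries can mean fewer cells of a kind or less RNA per cell, and these cannot be told apart. Summed markers of other cells moved with the genotype, and single markers went in both directions. Of 6 epithelial and mesothelial markers tested 4 were called higher in KO static than in WT static cells (12.1% of all genes) and Wt1 lower (8.66%). Of 7 fibroblast markers tested Lum was higher (236 ± 22 to 444 ± 24.9 CPM), and Col3a1, Col1a1 and Pdgfra were lower. In stretched cells the counts were 3 higher and 0 lower, and 1 higher and 4 lower (11.9% and 8.73% of all genes). Epithelial and mesothelial markers (8 of 8 in the table, none at 0, 4 or 5 under 1 CPM, Krt8 the highest) summed to 32.8 to 39.7 CPM in WT static, 30.2 to 37.1 CPM in WT stretch, 59 to 71 CPM in KO static and 43.4 to 61.3 CPM in KO stretch libraries. Fibroblast markers (8 of 8, none at 0, 2 or 3 under 1 CPM), most of them reads of Col1a1, which smooth muscle cells also make, summed to 50839 to 64403 CPM in WT static and 28756 to 29499 CPM in KO static libraries, and to 40251 to 60314 CPM in WT stretch and 25805 to 32834 CPM in KO stretch libraries. The smooth muscle markers summed to 4838 to 5724 CPM in WT static, 5386 to 6639 CPM in WT stretch, 3962 to 4997 CPM in KO static and 3281 to 4404 CPM in KO stretch libraries. Of the 9 smooth muscle markers, Smoc2, Acta2 and Lmod1 were called lower in KO static cells (8.66% of all genes) and Smtn higher (12.1%). Smoc2 was at 75.3 ± 6.91 CPM in WT static and 7.12 ± 0.51 CPM in KO static cells. In stretched cells 4 of the 9 were lower (8.73% of all genes) and 1 higher (11.9%). The part of these marker lists in the KO against WT differences was not tested.

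**Figure D1:**
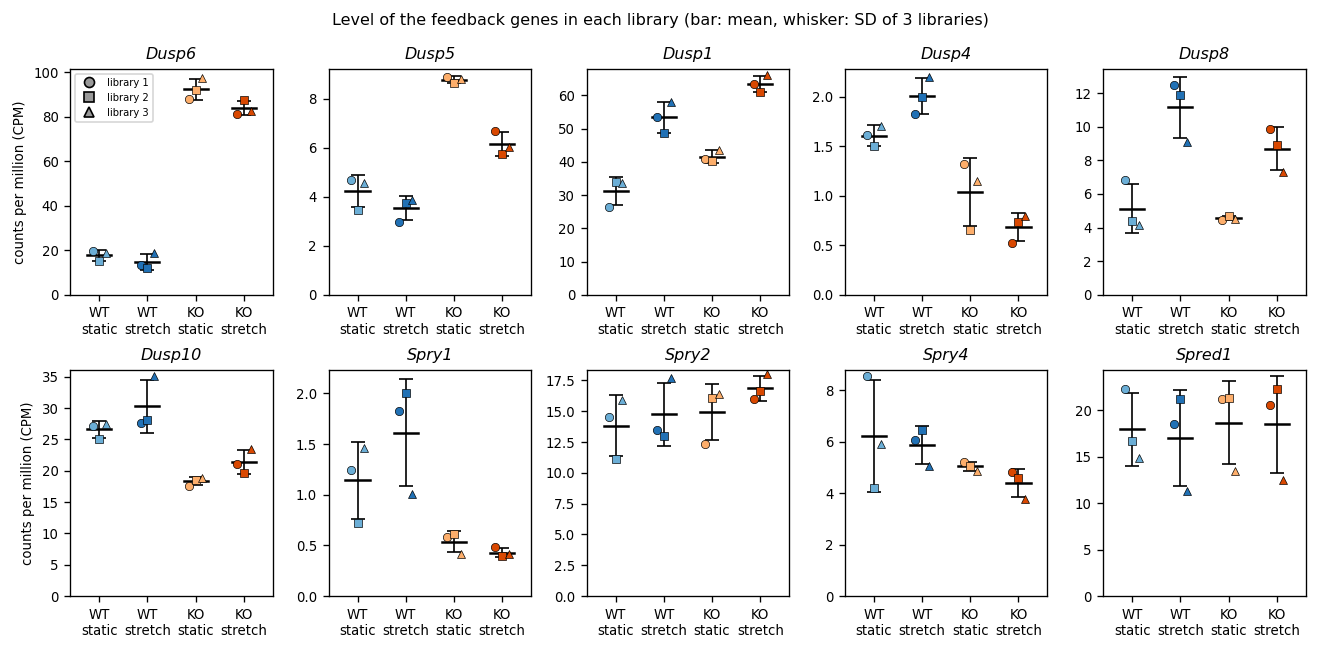
Level of each of the 10 feedback genes in counts per 1e6 reads (CPM, y axis from 0) in the 4 groups, with symbols for library numbers 1 to 3, bars for group means and whiskers for the SD of 3 libraries. The KO libraries of Dusp6 sit between 81.4 and 97.2 CPM, above all WT libraries, which sit between 12.1 and 19.8 CPM.

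**Figure D2:**
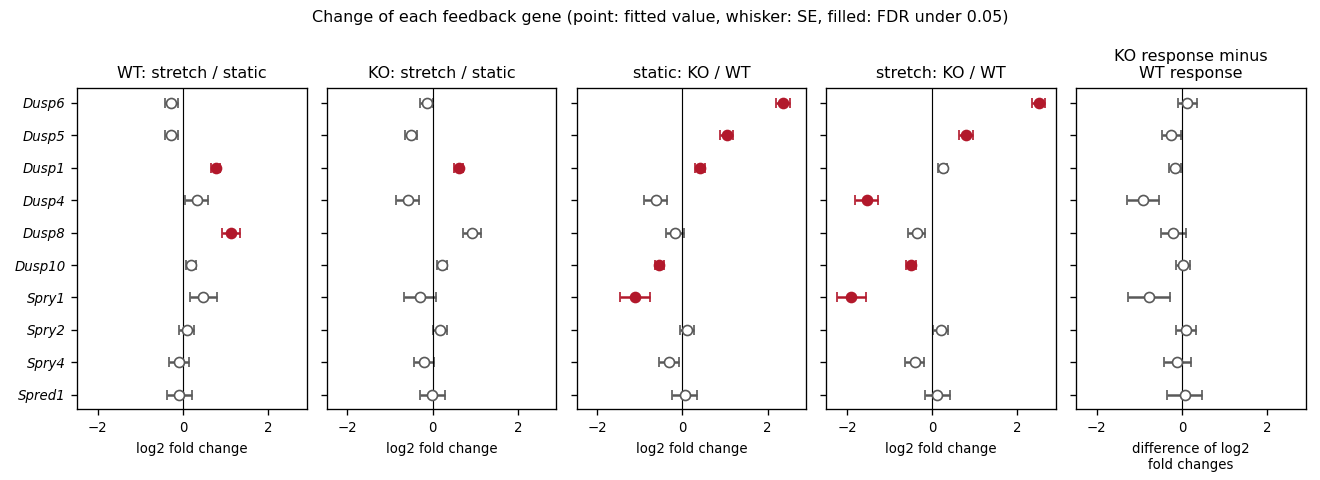
Fitted log2 fold change of each feedback gene in the 4 pairwise comparisons and difference of the log2 stretch responses (KO minus WT, last panel), with whiskers for the SE and filled points at FDR under 0.05. Dusp6 stands at 2.37 and 2.50 in the KO against WT panels, and no point of the last panel is filled.

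Among the phosphatases that act mainly on ERK, Dusp6 and Dusp5 were higher in KO cells and Dusp4 was lower. Dusp6 (ENSRNOG00000023896, chr7:41475162-41479392 in Rnor_6.0, 3 exons), a cytoplasmic phosphatase selective for ERK, was at 19.8, 15 and 18.7 CPM in WT static libraries 1, 2 and 3. In KO static cells it was at 87.9, 91.8 and 97.2 CPM. Every KO library was far above every WT library, and the fitted difference was 5.17-fold (log2 2.37 ± 0.16, FDR 1.09e-06). Under stretch Dusp6 was at 13.4, 12.1 and 18.7 CPM in WT and at 81.4, 87.4 and 82.5 CPM in KO cells. The groups were again fully apart, by 5.68-fold (log2 2.50 ± 0.16, FDR 7.32e-07). The authors' deposited table gives signed fold changes of 5.19 and 5.67 for the same comparisons. Within library numbers 1, 2 and 3 the log2 difference was 2.15, 2.62 and 2.38 in static and 2.60, 2.85 and 2.14 in stretched cells, so it was of like size in the libraries that stood apart. Stretch itself gave -0.27 ± 0.16 in WT (FDR 0.675) and -0.14 ± 0.15 in KO cells (FDR 1), and neither passed.

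Reads in the introns of Dusp6, which come mostly from unspliced transcripts, also differed between the genotypes. They gave a log2 fold change of 2.70 ± 0.44 in static cells (FDR 0.0021) and of 2.07 ± 0.39 in stretched cells (FDR 0.00554) in a separate edgeR fit over 15577 genes, in which 7.7% and 8.88% of genes were called. For stretch the intron reads called 0 of 8 feedback genes in WT (0.0193% of all) and in KO cells (0.0321% of all), while Dusp1 gave 1.10 ± 0.25 in WT (unadjusted p = 0.000703, FDR 0.485). Introns held 3.25% of the Dusp6 gene reads, so these values rest on fewer reads than those of the exons.

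Dusp5 (ENSRNOG00000014061, chr1:274245183-274258595, 4 exons), a nuclear phosphatase selective for ERK, moved the same way on a lower level. It was at 4.67, 3.48 and 4.58 CPM in WT static and at 8.91, 8.63 and 8.82 CPM in KO static cells. The KO libraries lay close together and above all WT static libraries, at 2.06-fold (log2 1.04 ± 0.16, FDR 0.000549). Under stretch the values were 2.97, 3.75 and 3.88 CPM in WT and 6.70, 5.73 and 6.02 CPM in KO cells, without overlap and at 1.74-fold (log2 0.80 ± 0.16, FDR 0.00336). Its intron reads gave 0.85 ± 0.21 (FDR 0.0288) and 1.10 ± 0.22 (FDR 0.00664). Stretched KO libraries were all below static KO libraries, at log2 -0.51 ± 0.15, and that did not pass (FDR 0.262, and 0.0853 with the library number as a block).

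Dusp4 (ENSRNOG00000011921, chr16:61078174-61091169, 4 exons), a nuclear phosphatase of ERK and other MAP kinases, went the other way. It had only 13 to 63 exon reads in a library, so its values are less precise. WT libraries held 1.61, 1.5 and 1.71 CPM static and 1.83, 2.00 and 2.20 CPM stretched, and KO libraries held 1.32, 0.654 and 1.15 CPM static and 0.522, 0.734 and 0.801 CPM stretched. The groups did not overlap in either condition, and the difference was called in stretched cells (log2 -1.54 ± 0.27, FDR 0.00167) but not in static cells (-0.63 ± 0.27, FDR 0.136). Its intron reads did not show that difference, with a log2 fold change of 0.03 ± 0.42 under stretch (FDR 0.979) and of 0.03 ± 0.43 in static cells (FDR 0.989).

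The phosphatases that act on the stress kinases included both genes that stretch raised. Dusp1 (ENSRNOG00000003977, chr10:16970625-16973418, 4 exons), a nuclear immediate early phosphatase of p38, JNK and ERK, was at 26.5, 33.8 and 33.5 CPM in WT static and at 53.4, 48.7 and 58.1 CPM in WT stretch libraries. No stretched library overlapped a static one, and the rise was 1.71-fold (log2 0.77 ± 0.11, FDR 0.0101). KO cells started higher, at 40.7, 40.2 and 43.7 CPM static, and reached 63.3, 61.0 and 66.0 CPM stretched. That rise was 1.53-fold (log2 0.61 ± 0.11, FDR 0.0286, and 0.00106 with the block), and it was 0.64, 0.60 and 0.59 within library numbers 1, 2 and 3. It was lost (FDR up to 0.145) when any of 8 libraries was left out, namely WT stretch 1 or 2, any KO static library or any KO stretch library. It was also lost with upper-quartile scaling (FDR 0.0757), with no filter on low counts (0.0624) and with limma on RPKM (0.101 or 0.111 by pseudocount). The same held when only the compared groups were fitted (FDR 0.144) and on intron reads (FDR 0.849). Those fits called 0 of 14184 and 5 of 15577 genes, so hardly any gene held in them. The WT rise was lost without WT stretch library 1 (FDR 0.0507), when only the compared groups were fitted (FDR 0.108) and on intron reads. For WT stretch the fit of only the compared groups called 10 of 13954 genes, and intron reads 3 of 15577.

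Dusp1 was also higher in KO than in WT static cells, at 1.33-fold (log2 0.41 ± 0.11, FDR 0.0188), and the libraries did not overlap. This call was lost without WT static library 1 or KO static library 3, with FDR up to 0.0724, and also with upper-quartile scaling (FDR 0.0545), when only the compared groups were fitted (FDR 0.0576) and on intron reads (0.40 ± 0.25, FDR 0.445). Under stretch the genotypes still did not overlap, but the difference of log2 0.25 ± 0.11 was not called (FDR 0.141), except with the block (FDR 0.0268) and without the libraries numbered 3 (FDR 0.041). On intron reads it was -0.09 ± 0.23 (FDR 0.88). Dusp1 was the feedback gene with the highest level per exon length in 3 of the 4 groups.

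Dusp8 (ENSRNOG00000029394, chr1:215030428-215033460, 4 exons), a phosphatase with a preference for JNK and p38, was at 6.81, 4.39 and 4.16 CPM in WT static and at 12.5, 11.9 and 9.10 CPM in WT stretch libraries. The groups were apart by 2.18-fold (log2 1.12 ± 0.21, FDR 0.0324, and 0.000888 with the block). KO libraries held 4.48, 4.70 and 4.53 CPM static and 9.87, 8.91 and 7.32 CPM stretched. They too were apart, by 1.9-fold (log2 0.93 ± 0.21), with an FDR of 0.0836 that became 0.00437 with the block, 0.00215 with DESeq2 and 0.0152 without the libraries numbered 3. Intron reads of Dusp8 gave the opposite direction for KO stretch, at log2 -0.63 ± 0.61 (FDR 0.969), and 0.66 ± 0.55 for WT stretch (FDR 1). The WT call was lost, with FDR up to 0.142, when any of 7 libraries was left out: WT static 2 or 3, WT stretch 1 or 2, KO static 1 or 2, or KO stretch 2. It was also lost when only the compared groups were fitted (FDR 0.15), a fit that called 10 of 13954 genes. Between the genotypes Dusp8 gave -0.17 ± 0.21 static (FDR 0.681) and -0.36 ± 0.20 stretched (FDR 0.257).

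Dusp10 (ENSRNOG00000004003, chr13:104284659-104321455, 4 exons), which acts on JNK and p38 rather than ERK, was lower in KO cells. Static WT libraries held 27.2, 25.1 and 27.5 CPM and static KO libraries 17.6, 18.5 and 18.8 CPM. These did not overlap, and the log2 fold change was -0.54 ± 0.11 (FDR 0.00496). Stretched WT libraries held 27.6, 28.1 and 35.2 CPM and stretched KO libraries 21, 19.6 and 23.4 CPM, again apart (-0.50 ± 0.11, FDR 0.007). The stretched call was lost with limma on log2(RPKM + 1) (FDR 0.0514), when only the compared groups were fitted (FDR 0.0505) and on intron reads (-0.35 ± 0.17, FDR 0.254), while the static call held in each of these. Stretch gave 0.19 ± 0.11 in WT and 0.22 ± 0.11 in KO cells, neither of which passed (FDR 0.695 and 0.737). In all 4 groups the library numbered 3 was the highest for Dusp10.

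Among the Sprouty genes Spry1 differed between the genotypes and Spry4 did not pass any test. Spry1 (ENSRNOG00000025371, chr2:124400678-124405331, 6 exons), an inhibitor of receptor signalling to Ras and ERK, had 8 to 56 exon reads in a library. WT libraries held 1.24, 0.721 and 1.46 CPM static and 1.83, 2.00 and 1.01 CPM stretched. KO libraries held 0.580, 0.613 and 0.416 CPM static and 0.482, 0.392 and 0.414 CPM stretched, all below every WT library. The log2 fold change was -1.12 ± 0.35 in static cells (FDR 0.0406) and -1.90 ± 0.34 in stretched cells (FDR 0.00192). The static call was lost without the libraries numbered 3 (-0.76, FDR 0.183) and, with FDR up to 0.153, when any of 9 libraries was left out: WT static 1 or 3, WT stretch 1, or any KO library. It was also lost with no filter on low counts (FDR 0.0567), with limma on log2(RPKM + 0.1) or log2(RPKM + 1) (FDR 0.0551 and 0.0894) and when only the compared groups were fitted (FDR 0.0662). The stretched call held in every fit that left out 1 library, with FDR up to 0.0106.

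Spry4 (ENSRNOG00000013851, chr18:32594957-32609864, 2 exons), which also restrains Ras and ERK signals, was at 8.55, 4.21 and 5.91 CPM in WT static and 5.22, 5.07 and 4.87 CPM in KO static libraries. The WT libraries spanned the KO values, and the log2 fold change was -0.31 ± 0.23 (FDR 0.431). Stretched cells held 6.06, 6.47 and 5.04 CPM in WT and 4.82, 4.6 and 3.78 CPM in KO, which did not overlap but were not called (-0.41 ± 0.23, FDR 0.257). Stretch gave -0.09 ± 0.23 in WT and -0.20 ± 0.23 in KO cells (FDR 0.983 and 1).

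Spry2 (ENSRNOG00000010058, chr15:90172974-90175802, 2 exons), another Sprouty inhibitor, is reported as uncertain because only 2.1% of its exon reads mapped uniquely and it lies in the annotated span of Mycbp2. Its total reads gave 11.1 to 15.9 CPM in WT static, 13.0 to 17.7 CPM in WT stretch, 12.3 to 16.4 CPM in KO static and 16.0 to 18.0 CPM in KO stretch libraries. The groups overlapped in every pairwise comparison, and no fold change passed (FDR 0.499 or above).

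Spred1 (ENSRNOG00000005209, chr3:108795234-108857556, 7 exons), which brings the Ras inactivator neurofibromin to the membrane, had the smallest range between group means of the 10 genes, log2 0.15. Its libraries held 22.3, 16.7 and 14.8 CPM in WT static, 18.5, 21.2 and 11.3 CPM in WT stretch, 21.2, 21.3 and 13.5 CPM in KO static and 20.6, 22.3 and 12.5 CPM in KO stretch. The library numbered 3 was the lowest in all 4 groups, by log2 -0.66 on average, and no group stood apart. The 4 fold changes lay between -0.08 ± 0.29 and 0.12 ± 0.29, with FDR of 0.852 or above.

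The genes were also counted by whether the libraries of the groups overlapped at all. Stretched and static libraries did not overlap for 4 of 10 genes in WT (15.4% of all tested genes) and for 6 of 10 in KO cells (12.5%). KO and WT libraries did not overlap for 6 of 10 genes when static (34.8%) and for 7 of 10 when stretched (33.6%).

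The test of the difference between the stretch responses of KO and WT cells called 0 of 10 feedback genes and 0 of 14825 genes (0%). At an unadjusted p under 0.05 it picked 336 genes (2.27%), among them Dusp4 alone of the 10, at log2 -0.91 ± 0.38 (unadjusted p = 0.0368, FDR 1). With the block 2 genes were called (0.0135%), DESeq2 called 9 and limma 0 or 6 by pseudocount, and 0 of 10 feedback genes were among them in each of these tests. For Dusp1 the difference was -0.16 ± 0.15 and for Dusp8 -0.20 ± 0.29, so for neither gene was the response of KO cells shown to differ from that of WT cells, nor shown to be equal.

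Levels between the genes were compared in RPKM, which divides by exon length. In WT static cells the order was Dusp1 (12.1 ± 1.96 RPKM, SD, n = 3), Spred1 (8.14 ± 1.46), Dusp10 (7.33 ± 0.544), Spry2 (5.71 ± 1.16, uncertain), Dusp6 (4.82 ± 0.702), Dusp8 (1.94 ± 0.487), Dusp5 (1.31 ± 0.216), Spry4 (0.971 ± 0.319), Spry1 (0.342 ± 0.122) and Dusp4 (0.302 ± 0.0292). Libraries of neighbours from Spred1 to Dusp6 overlapped, as did those of Dusp5 and Spry4 and of Spry1 and Dusp4. In KO static cells Dusp6 led at 25.4 ± 2.6 RPKM, above Dusp1 at 16.3 ± 1.61 RPKM with no overlap. In KO stretch cells Dusp1 (24.8 ± 2.26 RPKM) and Dusp6 (23 ± 1.3 RPKM) overlapped at the top. In WT stretch cells Dusp1 led at 20.3 ± 2.39 RPKM, and Dusp8 (4.19 ± 0.561 RPKM) and Dusp6 (3.96 ± 1.08 RPKM) overlapped.

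**Figure D3:**
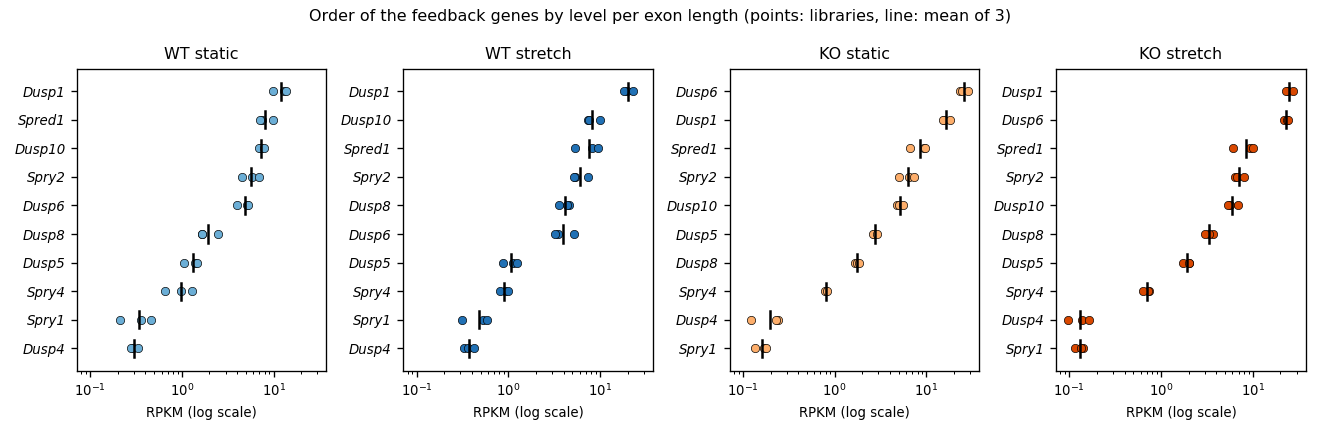
Level per exon length (RPKM, log scale) of the 10 feedback genes in each group, ordered by the group mean, with points for libraries and a line for the mean of 3. Dusp6 is the fifth gene in WT static cells at 4.82 RPKM and the first in KO static cells at 25.4 RPKM.

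Summed over the 10 genes the level was 42.9 ± 2.94 RPKM in WT static, 53.2 ± 3.44 in WT stretch, 67.3 ± 4.21 in KO static and 75.6 ± 2.64 in KO stretch cells. Dusp6 made up 11.2%, 7.38%, 37.7% and 30.4% of these sums, and Dusp1 made up 28.2%, 38.1%, 24.1% and 32.8%. Without Spry2 the sums were 37.2 ± 1.81, 47.2 ± 2.16, 61 ± 3.18 and 68.6 ± 1.83 RPKM. The sums of all 10 genes were higher in KO than in WT groups, and the gene with the largest share of the sum was Dusp6 in KO static cells and Dusp1 in the other groups. The 10 genes did not share a rise as a set. Their median log2 fold change for KO against WT was -0.06 static and -0.12 stretched.

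Genes with a profile over the 4 group means close to that of a feedback gene were sought among 9890 genes, by the root mean square difference of centred log2 CPM. For Dusp6, which had the widest range (log2 2.66), they were Arsi (0.0434), the nucleoside transporter Slc29a1 (0.0556) and the surface glycoprotein Thy1 (0.0669). For Spry1 (range 1.62) they were Col27a1 (0.122), Stmn2 (0.125) and Maoa (0.137). For Dusp4 (range 1.42) they were Hmgb3 (0.0596), Maoa (0.0787) and the smooth muscle actin Acta2 (0.0858). These are descriptions over 4 means.

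Genes outside the family that respond to ERK were higher in KO static cells for 12 of 20 tested (12.1% of all genes) and lower for 0 (8.66%), and the list's median log2 fold change was 0.91 in static cells against 0.01 over all genes. In stretched cells the counts were again 12 and 0 (11.9% and 8.73% of all genes), with a median of 0.76. The whole list was chosen with earlier results of these data known, so its counts are descriptions. Egr2, an early growth response transcription factor, was at 1.68 ± 0.213 CPM in WT static and 8.33 ± 1.26 CPM in KO static cells (log2 2.32 ± 0.19, FDR 4.86e-06). Lif, a secreted cytokine, was at 4.75 ± 0.474 and 21.3 ± 3.81 CPM (2.16 ± 0.18, FDR 6.65e-06). The ETS factors Etv4 and Etv5, singled out after their values were seen, gave 1.48 ± 0.14 (FDR 1.48e-05) and 1.75 ± 0.14 (FDR 3.69e-06). DESeq2 called 12 higher and 1 lower in static cells. Under stretch 0 of the 20 were higher (0.277% of all genes) and 3 lower (0.465%) in WT cells, with a median of 0.09. The lower genes were Egr2 (-1.10 ± 0.20, FDR 0.0347), Egr1 (-0.73 ± 0.13, FDR 0.0278) and the cyclin Ccnd1 (-0.64 ± 0.09, FDR 0.0101). In KO cells Egr1 alone of the list was called under stretch and was lower (-0.74 ± 0.13, FDR 0.0256), beside 0.587% of all genes. With the block the list had 3 higher and 4 lower in WT stretch (6.37% of all genes called) and 1 higher and 4 lower in KO stretch (4.42%). In WT cells Dusp1 and Dusp8 were thus higher under stretch and Egr1 was lower.

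**Figure D4:**
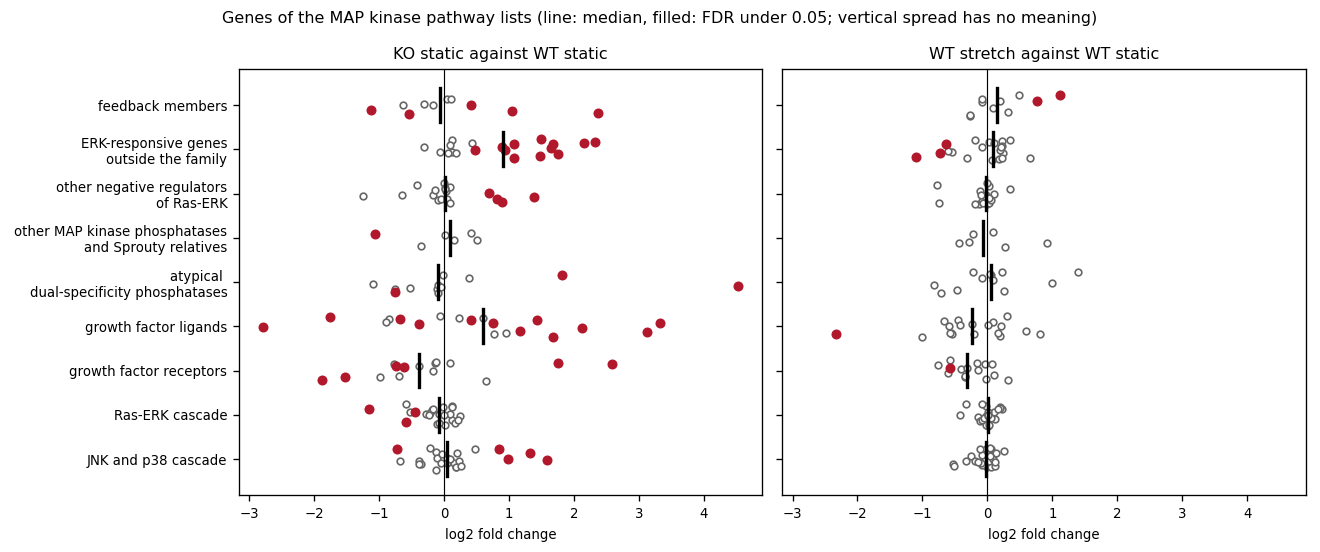
Log2 fold change of every tested gene of the pathway lists for KO static against WT static (left) and WT stretch against WT static (right), with a line for each list's median and filled points at FDR under 0.05. In the left panel the ERK-responsive list has its median at 0.91, while the Ras-ERK cascade has its median at -0.07.

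Receptors and their ligands included genes called in both directions between the genotypes. In KO static cells 2 of 15 growth factor receptors were higher, a share near the 12.1% of all genes, and 4 were lower (8.66% of all). The receptor Fgfr1 was at 7.26 ± 1.87 CPM in WT static and 43.7 ± 4.51 CPM in KO static cells (log2 2.58 ± 0.20, FDR 3.63e-06), and Egfr at 24.7 ± 7.29 and 83.9 ± 25.9 CPM (1.76 ± 0.43, FDR 0.0126). Fgfr3 was at 81.8 ± 6.1 CPM in WT and 22.3 ± 1.19 CPM in KO static cells (-1.88 ± 0.16, FDR 6.18e-06) and Fgfr2 at 60.4 ± 1.9 and 20.9 ± 1.92 CPM (-1.53 ± 0.11, FDR 2.23e-06). The other lower receptors, outside the naming rule, were Pdgfrb and Pdgfra, and in stretched cells the counts were again 2 and 4 (11.9% and 8.73% of all). Fgfr2 was also the 1 receptor that changed under stretch, in WT (-0.57 ± 0.11, FDR 0.045) and in KO cells (-0.65 ± 0.11, FDR 0.0256). When library number was a block, 4 receptors were lower in WT stretch (6.37% of all genes called in either direction) and 3 in KO stretch (4.42%).

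Of 19 ligands 8 were higher and 4 lower in KO static cells, beside 12.1% and 8.66% of all genes. The EGF receptor ligand Ereg was at 1.54 ± 0.573 CPM in WT static and 15.2 ± 2.38 CPM in KO static cells (log2 3.33 ± 0.25, FDR 2.88e-06), and Pdgfd was at 2.58 ± 0.572 and 22.5 ± 3.78 CPM (3.12 ± 0.25, FDR 4.7e-06). Nrg1 (-1.76 ± 0.23, FDR 0.000163) and Pdgfa (-0.67 ± 0.16, FDR 0.0124) were lower, as were Fgf18 and Hbegf, which fell outside the naming rule. In stretched cells 6 ligands were higher and 2 lower in KO, beside 11.9% and 8.73% of all genes. Under stretch 1 ligand was lower in each genotype (0.465% of all genes in WT and 0.587% in KO), Fgf18 in WT and in KO cells Tgfa (-0.82 ± 0.12, FDR 0.0133). With the block 1 ligand was higher and 5 lower in WT stretch, where 6.37% of all genes were called.

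The kinase chain itself had a few called genes in each genotype comparison, counted here beside the share over all genes. In the Ras-ERK cascade 0 of 24 genes were higher (12.1% of all genes) and 3 lower (8.66%) in KO static cells, namely the scaffold Ksr1 (log2 -1.15 ± 0.16, FDR 0.000281), the adaptor Gab1 (-0.58 ± 0.18, FDR 0.0434) and the ERK kinase Map2k1 (-0.44 ± 0.09, FDR 0.00414). With the block 2 were higher and 7 lower, where 37.6% of all genes were called. In stretched cells 0 were higher and 3 lower (20.6% of all called), and 1 and 8 with the block (37.3%). In the JNK and p38 cascade 4 of 25 were higher and 1 lower in KO static cells (20.8% of all called), and 5 and 4 with the block (37.6%). In stretched cells the counts were 4 and 3 (20.6%), and 6 and 5 with the block (37.3%). The stress kinase Map3k5 (1.32 ± 0.20, FDR 0.000619) and Gadd45a (0.99 ± 0.17, FDR 0.00142) were higher, and Gadd45b (-0.72 ± 0.16, FDR 0.00764), like Gadd45a an activator of the stress kinases, was lower. In edgeR and in DESeq2 stretch changed 0 genes of both cascades in either genotype. At an unadjusted p under 0.05 these were 1 gene of each cascade in WT, and 0 of the Ras-ERK and 4 of the JNK and p38 cascade in KO cells. With the block 1 gene of each was lower in WT stretch and 3 of the JNK and p38 cascade were lower in KO stretch. Few reads mapped uniquely for Map3k7 (0%), Mapk7 (0.0462%), Map2k3 (0.754%) and Map3k1 (24%) of these cascades, so their values are uncertain.

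Other inhibitors of the pathway were higher for 4 of 18 (12.1% of all genes) and lower for 0 (8.66%) in KO static cells, a total share close to the 20.8% of all genes called. The Ras inactivator Rasa3 was at 25.1 ± 0.784 CPM in WT static and 46.9 ± 2.09 CPM in KO static cells (log2 0.90 ± 0.08, FDR 7.22e-06), and the receptor inhibitor Lrig1 gave 0.70 ± 0.14 (FDR 0.00348). The FGF signal inhibitor Il17rd, singled out after its values were seen, gave 1.38 ± 0.32 (FDR 0.00988) from a low level of 1.48 ± 0.347 CPM, and the fourth gene, also outside the rule, was Ptpn7. In stretched cells the counts were again 4 and 0 (11.9% and 8.73% of all). Among 6 tested relatives of the 10 genes the Sprouty gene Spry3 was the 1 called in static cells (20.8% of all), and it was lower (8.09 ± 0.907 to 3.87 ± 0.478 CPM, -1.06 ± 0.18, FDR 0.0012). Spred3 was higher in KO than in WT stretched cells (0.49 ± 0.15, FDR 0.041). Of 12 atypical dual-specificity phosphatases 2 were higher and 1 lower in KO static cells, a share near that of all genes (20.8%). On this list Dusp11 (0% of reads mapped uniquely) and Styx (48.6%) are uncertain. The lower gene was Dusp14 (-0.76 ± 0.14, FDR 0.00233), of whose reads 77.3% mapped uniquely, and the higher ones, outside the naming rule, were Dusp22 and Dusp15. For stretch edgeR called 0 genes of these 3 lists in either genotype. DESeq2 called 1 relative and 1 atypical phosphatase in WT, and at an unadjusted p under 0.05 the inhibitors, relatives and atypical phosphatases had 2, 2 and 3 genes in WT and 0, 2 and 1 in KO cells. With the block 1 relative was higher and 1 lower in each genotype, and 1 atypical phosphatase was higher in WT cells. The relative Dusp16, singled out after its values were seen, was at 6.37 to 10.5 CPM in WT static and 12.7 to 20.9 CPM in WT stretch libraries. Its KO means were 9.9 ± 2.08 CPM static and 15.3 ± 2.98 CPM stretched. Dusp7, also singled out, went the other way in WT cells (52.7 ± 2.85 to 43.3 ± 1.99 CPM). The relatives' median log2 fold change was -0.06 for stretch in WT cells.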

How the data were processed

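RNA was measured in 12 libraries of rat aortic smooth muscle cells, 3 in each of 4 groups. Per the labels, the authors prepared directional poly(A) libraries from 500 ng of RNA, read both ends for 36 bases (NextSeq 500) and used CLC Genomics Workbench 12.0 to map to Rnor_6.0 and to count. Per the file headers, each count is of whole reads in a gene's exons (all, or uniquely mapped) or introns. The authors' RPKM divides exon reads by exon length and mapped reads. The authors' deposited table also gives a signed fold change as a score, and p-values adjusted as false discovery rates. Trimming, the annotation release and the strand setting are not given in the sources used here. Per-library values in 120 other columns were not used, and 35 genes have an exon length of 0.

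The test on exon reads was that of edgeR 4.0.16 (R 4.3.3): filterByExpr (minimum count 10), TMM scaling, 1 mean per group over all 12 libraries (8 residual degrees of freedom), the quasi-likelihood F test and Benjamini-Hochberg adjustment over all 14825 genes. The procedure was also run on simulated counts with a common dispersion and no effect of library number. These libraries do show such an effect, so no result here rests on that run. CPM are TMM-scaled. A fold change carries the SE from the fit. Alternatives were the library number as a block, upper-quartile and RLE scaling, DESeq2 1.42.0, no filter, unique reads, intron reads, limma 3.58.1 on log2(RPKM + 0.1) or log2(RPKM + 1), libraries 1 and 2 only, and only the groups compared. Intron reads, and the block with unique reads or with libraries 1 and 2 only, were added after the data were seen.

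Libraries numbered 3 deviated from their group means together (r = 0.43 to 0.58, 6 pairs). Numbers 1 (r = 0.18 to 0.26) and 2 (0.14 to 0.28), 6 pairs each, lay inside the range of libraries of different number (-0.43 to 0.31, 36 pairs). The library number was fitted as a block, but a pairing of all numbers was not shown, and the labels give none. Without the libraries numbered 3 stretch changed 528 genes in WT and 439 in KO cells, and 523 and 447 with the block.

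Members and the 13 gene lists were chosen with earlier results of these data known. Of each pathway list, the text names up to 2 genes a direction with the largest fold change at FDR under 0.05 and mean log2 CPM of at least 2, apart from those said to be singled out. Dusp13, Ier2 and Pecam1 were not analysed here. Promoters are from RefSeq (GRCr8), which covered 9 of the 10 genes.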

Additional observations from a re-analysis of the deposited data

How the results depend on the processing

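Beside the 2 feedback genes called for stretch in WT cells, 0 were called when only the groups compared were fitted (10 of all 13954 genes). On intron reads 0 were called (3 of all 15577 genes). When 1 library was left out 0 to 2 were called, beside 23 to 118 genes in all. Beside the 1 gene called for stretch in KO cells, 2 were called with the replicate block, alone (656 of all 14825 genes) or on unique exon reads (656 of 13992). With DESeq2 2 were called (290 of all 14825 genes). Without the libraries numbered 3 there were 2 (439 of all 14925 genes), and 2 also with the block (447). For that comparison 0 were called with upper-quartile scaling (88 of all 14825 genes) and without the filter on low counts (76 of 21860). With limma on log2(RPKM + 0.1) or log2(RPKM + 1) 0 were called (92 and 102 of all 14825 genes). When only the groups compared were fitted 0 were called, as were 0 of all 14184 genes. On intron reads 0 were called (5 of all 15577 genes). When 1 library was left out 0 to 2 were called, beside 24 to 122 genes in all. For KO static against WT static the 5 calls (20.8% of all genes) became 3 when only the groups compared were fitted (2722 of all 14149 genes). On intron reads 3 of 8 were called (7.7% of all genes). When 1 library was left out 3 to 5 were called, beside 2439 to 3226 genes in all. For KO stretch against WT stretch the 5 calls (20.6% of all genes) became 2 of 8 on intron reads (8.88% of all genes). They stayed at 5 whichever library was left out, beside 2350 to 3192 genes in all. For the difference of the responses 0 feedback genes were called in every fit that was run, beside 0 to 9 genes in all. Intron reads test 8 of the 10 genes and hold fewer reads per gene. Of 32 pairwise fold changes 10 had the opposite direction on them, of which 1 was called on exon reads, that of Dusp4 in KO against WT stretch (0.03 on introns). The others were those of Dusp6 (0.95) for WT stretch, Dusp4 (0.16), Dusp6 (0.31), Dusp8 (-0.63) and Spred1 (0.09) for KO stretch, Dusp4 (0.03), Spred1 (-0.06) and Spry4 (0.14) for KO static and Dusp1 (-0.09) for KO against WT stretch; the cause was not tested. Dusp6 and Dusp5 were called in KO against WT, static and stretched, under every alternative run. With the block Dusp8 in KO stretch and Dusp1 in KO against WT stretch became calls, and it changed no other call of a feedback gene. Called for all genes, stretch gave 110 genes in WT and 118 in KO cells, and 944 and 656 with the block and 337 and 290 with DESeq2. On uniquely mapped reads Spry2 stood at 0.102 to 0.164 RPKM. Depth limits Spry1 and Dusp4 most, with at least 8 and 13 reads in a library.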

Other observations

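Dusp22, an atypical dual-specificity phosphatase known to act on JNK signalling, had the largest KO against WT difference of the phosphatases on the lists in static cells. It lay below the level at which genes were named and was picked after its values were seen, so its FDRs are descriptions and no test. WT static libraries held only 0.12 to 0.208 CPM, near the floor, so the size of the fold change is imprecise. The gene passed the filter on low counts through its KO libraries. Its level was 0.178 ± 0.0503 CPM in WT static, 0.492 ± 0.227 CPM in WT stretch, 4.32 ± 0.091 CPM in KO static and 3.97 ± 0.688 CPM in KO stretch cells (SD, n = 3). The log2 fold change in edgeR was 4.53 ± 0.35 in static (FDR 3.48e-06) and 3.01 ± 0.31 in stretched cells (FDR 2.54e-05). Stretch gave 1.39 ± 0.39 in WT cells, which did not pass (FDR 0.189), and the difference of the responses did not pass either (-1.51 ± 0.47, FDR 1).

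Dusp3, another small phosphatase of MAP kinases, was at 68.4 ± 3.22 CPM in WT static, 81.6 ± 4.6 CPM in WT stretch, 64.1 ± 1.39 CPM in KO static and 63.1 ± 0.78 CPM in KO stretch cells. KO was lower than WT under stretch (log2 -0.37 ± 0.07, FDR 0.00372), and static cells gave -0.09 ± 0.07 (FDR 0.476). Stretch gave 0.25 ± 0.07 in WT cells, which did not pass in the edgeR fit without the block (FDR 0.212) and passed with it (FDR 0.0295). The test of the difference between the KO and WT stretch responses called 0 of the 12 atypical phosphatases tested, Dusp3 included.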
